A study of Mus musculus with 19 samples.

Results

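The genes described here serve renal gluconeogenesis and ammoniagenesis, the making of new glucose and of ammonia by the kidney. They are Pck1, Pck2, Pcx, Fbp1, Fbp2, Slc37a4, Glud1, Slc38a3 and Ppargc1a. They were chosen by name for their role, but with earlier results of these data known. The share of them that rose therefore gives no independent support. Every probe set listed for one of them was taken. Of these 9 genes, 8 had a probe set that names them alone, which gave 11 probe sets out of 28898 such probe sets for 17097 genes on the array. Ppargc1a appears only on 5 probe sets that are listed for it together with Asic2, an ion channel gene, and these were kept out of all counts of members. Kidney RNA was measured in 19 male mice without renal ischemia-reperfusion injury, 1 array per mouse. The young mice were C57BL/6J, 10 to 14 weeks old and 22 to 25 g in weight, with 5 on ad libitum food and 4 fasted. The aged mice were FVB-C57BL/6J F1 hybrids with a mean age of 73 weeks and a mean weight of 47 g, with 5 on ad libitum food and 5 fasted. Fasting lasted 3 days with water only. The aged mice thus differed from the young in strain and weight as well as in age, and these factors cannot be told apart.

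As background, the cells of the renal proximal tubule form glucose from lactate, glycerol and glutamine, and this matters most when food is withheld. Glutamine enters these cells from the blood side through Slc38a3 (SNAT3), its amino groups are released as ammonia, the second of them by glutamate dehydrogenase (Glud1), and the remaining carbon skeleton reaches oxaloacetate. Pyruvate carboxylase (Pcx) makes oxaloacetate from pyruvate, the phosphoenolpyruvate carboxykinases Pck1 (cytosol) and Pck2 (mitochondria) turn it into phosphoenolpyruvate, fructose-bisphosphatase (Fbp1, Fbp2) removes a phosphate further up, and Slc37a4 carries glucose 6-phosphate to the glucose-6-phosphatase that releases free glucose. Ppargc1a (PGC-1alpha) is a transcriptional coactivator of such genes in liver and kidney.

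Levels are RMA values on the log2 scale. Array medians were 4.15 to 4.21 in the young and 3.44 to 3.49 in the aged mice, so levels are set side by side between diets within an age only. A probe set is said to have risen or fallen at an adjusted p of at most 0.05 in limma, adjusted over all 45141 probe sets of the array. Of the arrays, that of aged fasted mouse 33 stood apart by its liver transcripts. The summed level of 6 liver markers was 13.80 (log2) in this mouse and 10.79 to 11.04 in the other aged fasted mice, against 11.50 to 11.78 in the aged ad libitum fed mice. Young fasted mouse 339 had the highest summed level of 3 white adipocyte markers, 9.74, and of 5 brown adipocyte markers, 9.53, in its group. The members' results were also computed without these 2 mice. The 4 measured proximal tubule markers were high in every group, with summed levels of 12.60 to 12.86 in young and 12.98 to 13.32 in aged kidneys. Of these markers Aqp1 rose in the aged, while Slc5a2 and Slc22a6 fell in both ages.

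Fasting raised a large share of the members in both ages, and none of them fell. In aged kidneys 6 of the 11 probe sets rose, where 6.48% of all probe sets on the array passed (3.16% rose and 3.32% fell), and these belonged to Slc38a3, Glud1, Pck1, Fbp2 and Pcx. In young kidneys 7 of 11 rose, where 19.6% of all probe sets passed (10.1% rose and 9.54% fell), and Pck2 joined the same 5 genes. The median log2 fold change over the 11 probe sets was 0.38 in aged and 0.65 in young kidneys, against 0.0003 and 0.0033 over all probe sets. At an unadjusted p under 0.05 the count of members that were lower was also 0 in both ages in limma (8.87% of all probe sets in aged and 14.5% in young kidneys were lower at that threshold). The same linear model without moderated variances is named the unmoderated model below, and all its counts are at an adjusted p of at most 0.05. By this model the count was 0 as well. The values of the diets did not overlap, with all fasted mice above all fed ones, at 4 of 11 probe sets in aged kidneys (3.4% of all probe sets) and at 7 of 11 in young kidneys (8.63% of all). Because whole tissue was measured, fewer cells of a type and less RNA per cell cannot be told apart. Without mice 33 and 339 the counts were 5 of 11 in aged and 7 of 11 in young kidneys, the lost one being Pck1 in the aged.

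**Figure D1:**
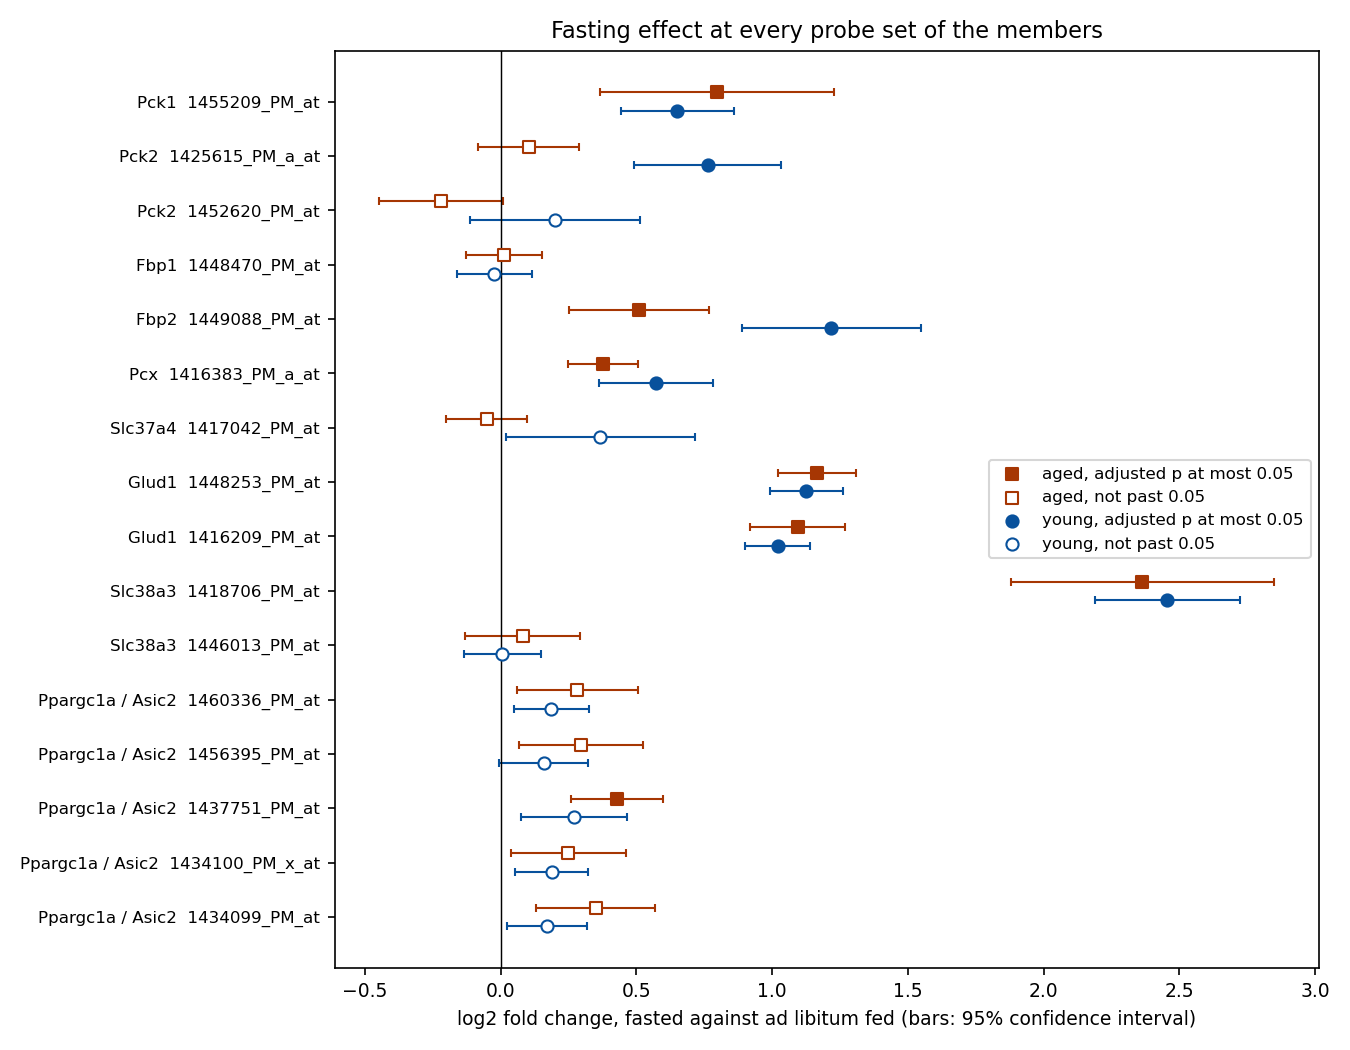
Log2 fold change of fasted against ad libitum fed mice (x axis) at each of the 11 probe sets of the members and the 5 listed for both Ppargc1a and Asic2 (rows), with 95% confidence intervals, squares for aged and circles for young kidneys. Filled symbols passed an adjusted p of 0.05, and Slc38a3 at 1418706_PM_at lies furthest to the right at 2.36 in aged and 2.46 in young kidneys.

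Among the 11 probe sets that name a member alone, the largest fold change in either age was that of Slc38a3, the glutamine transporter, which rose 5.15-fold in aged and 5.48-fold in young kidneys at probe set 1418706_PM_at. Its log2 levels in the 5 young ad libitum fed mice were 6.21, 5.81, 5.92, 6.29 and 5.77, and in the 4 young fasted mice 8.47, 8.59, 8.20 and 8.57. Every young fasted mouse lay well above every fed one. The log2 levels in aged ad libitum fed mice were 6.02, 5.23, 5.42, 6.60 and 5.25, and in aged fasted mice 8.14, 7.89, 8.18, 8.16 and 7.97. The aged groups did not overlap either, although the fed mice were spread more widely (SD 0.59, n = 5) than the fasted mice (SD 0.13, n = 5), with mouse 40 the highest of them. The log2 fold change was 2.36 (SE 0.22, adjusted p 5.57e-05, limma) in aged and 2.46 (SE 0.12, adjusted p 4.25e-07) in young kidneys. The difference between the ages was -0.09 (log2, 95% confidence interval -0.68 to 0.50, adjusted p 0.941), and it turned to 0.13 without aged fed mouse 40. The second Slc38a3 probe set, 1446013_PM_at, was dim, above only 36.03% to 44.84% of all probe sets. Its log2 fold change was 0.08 (adjusted p 0.737) in aged and 0.01 (adjusted p 0.962) in young kidneys, so the 2 probe sets of this gene disagree.

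Glud1, which releases ammonia from glutamate in the mitochondria, rose just over 2-fold at both of its probe sets and in both ages. At 1448253_PM_at, young ad libitum fed mice had log2 levels of 11.40, 11.31, 11.27, 11.30 and 11.28, while young fasted mice had 12.43, 12.58, 12.40 and 12.34. In aged ad libitum fed mice they were 10.55, 10.65, 10.52, 10.58 and 10.71, and in aged fasted mice 11.62, 11.79, 11.78, 11.83 and 11.82. The diets did not overlap in either age, and mice within a group lay close together (SD 0.05 to 0.10, n = 4 or 5). Fasting changed the level by 1.17 on the log2 scale (SE 0.07, adjusted p 1.98e-06, limma) in aged and 1.13 (SE 0.06, adjusted p 7.41e-07) in young kidneys. At the second probe set, 1416209_PM_at, it was 1.09 (SE 0.08, adjusted p 6.92e-06) in aged and 1.02 (SE 0.05, adjusted p 6.50e-07) in young kidneys. The difference between the ages at 1448253_PM_at was 0.04, with a 95% confidence interval of -0.14 to 0.22 (log2, adjusted p 0.913). Leaving out any 1 of the 19 mice kept every fasting effect of Glud1 at 1448253_PM_at between 1.08 and 1.20. Without mouse 33, the lowest of the aged fasted mice at this probe set, the value in the aged was 1.20.

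**Figure D2:**
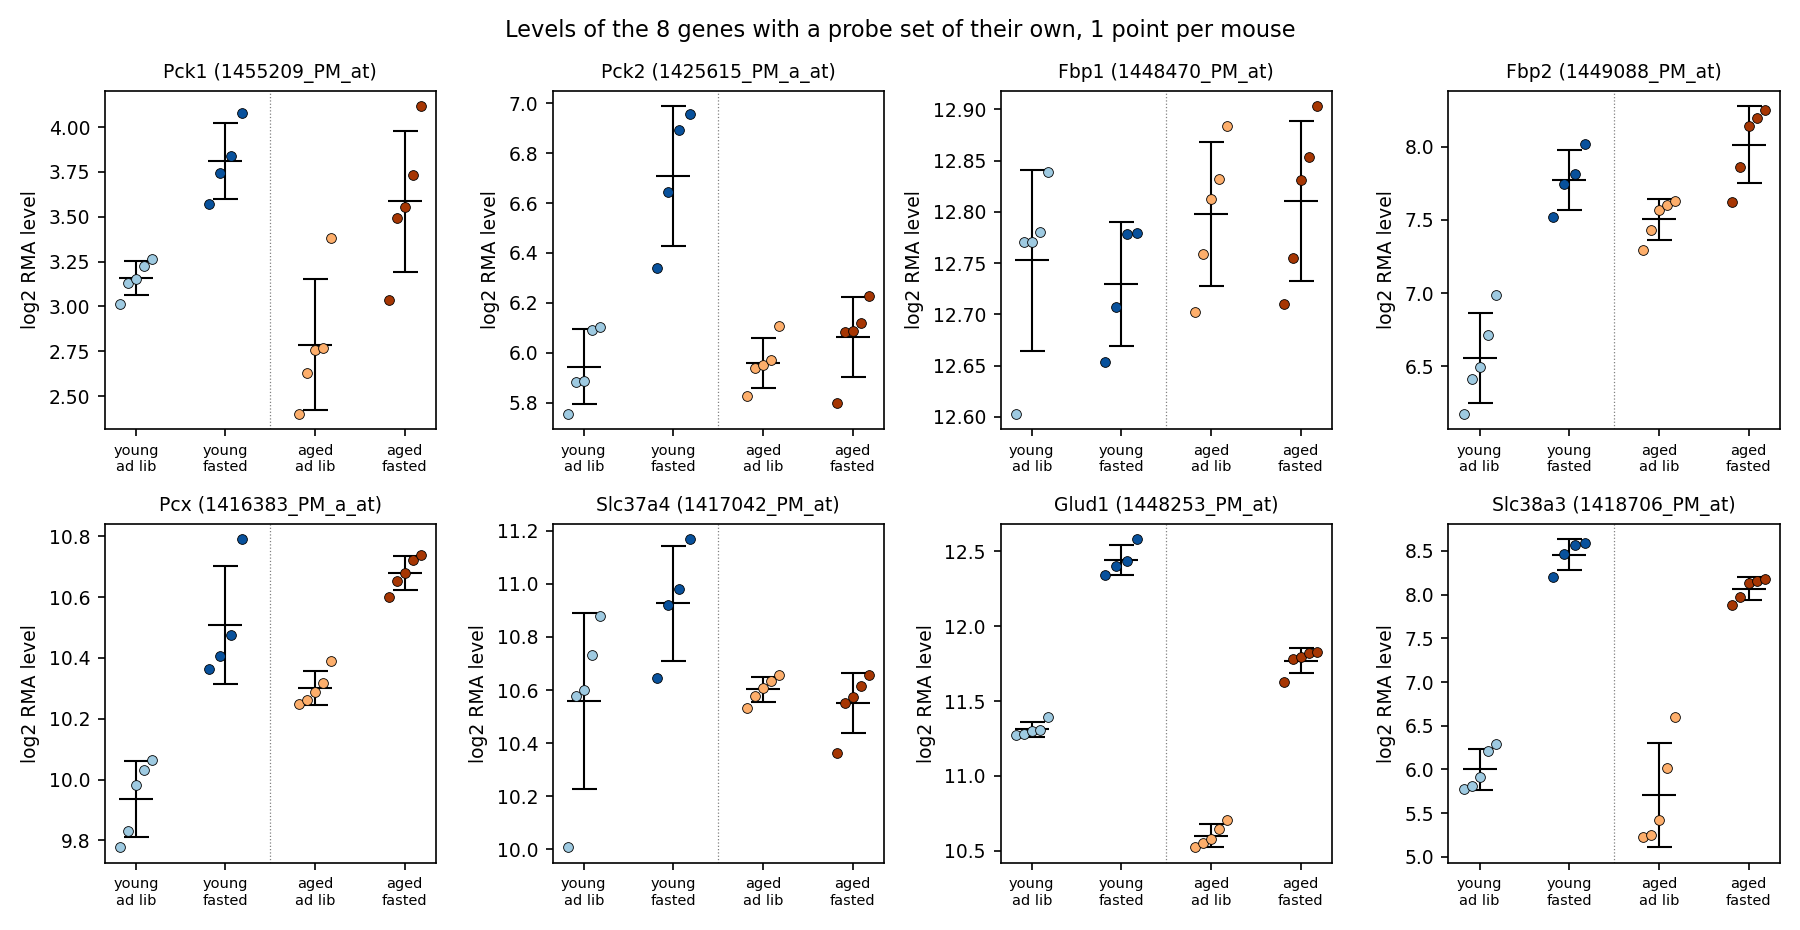
Log2 RMA level (y axis, a separate scale in each panel) of the 8 genes with a probe set of their own, at the brightest one, in young and aged mice fed ad libitum or fasted (x axis), 1 point per mouse with the group mean and SD as bars. Glud1, Slc38a3 and Pcx show no overlap between the diets in either age, while Pck1, Pck2 and Fbp2 separate the diets in the young only. Fbp1 lies between 12.60 and 12.90 in all 19 mice.

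Of the enzymes that make phosphoenolpyruvate, Pck1 rose in both ages and Pck2 in the young. The 250 bases before the start sites of these genes are shown because the promoter of Pck1 is the textbook case of a promoter that responds to fasting signals, and because Pck2 was the member whose fasting effect differed between the ages. They are from RefSeq on the build GRCm38.p6, for Pck1 at chr2:173152823-173153072 and for Pck2 at chr14:55540016-55540265, both on the plus strand, 5′ to 3′, and capitals mark a cyclic AMP response element core.
Pck1: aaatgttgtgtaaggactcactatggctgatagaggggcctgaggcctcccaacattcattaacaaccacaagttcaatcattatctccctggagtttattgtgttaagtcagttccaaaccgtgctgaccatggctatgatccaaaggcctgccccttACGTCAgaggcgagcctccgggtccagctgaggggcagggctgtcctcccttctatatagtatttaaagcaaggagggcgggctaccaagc
Pck2: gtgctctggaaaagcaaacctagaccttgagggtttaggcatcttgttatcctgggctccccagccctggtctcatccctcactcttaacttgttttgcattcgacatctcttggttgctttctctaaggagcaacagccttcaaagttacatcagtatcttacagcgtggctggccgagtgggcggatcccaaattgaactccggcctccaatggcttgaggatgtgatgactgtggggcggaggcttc
Several motifs were searched on both strands of these windows, namely this core (TGACGT or ACGTCA), a forkhead motif (TGTTTAC or GTAAACA) and a glucocorticoid receptor hexamer (TGTTCT or AGAACA). They occur in 6.47%, 3.17% and 16.1% of 32851 promoter windows of this length. Pck1 held ACGTCA with its first base at -91 from the start site, and Pck2 held none of the motifs. Of the 11 windows of the 8 members that had one, 4 held the core, those of Pck1, Ppargc1a (ACGTCA at -50) and 2 overlapping windows of Slc37a4, and none held the other motifs. Slc38a3 had no window in this set and was not searched. Bases outside these windows of 250 were not searched, so a motif missing here may lie elsewhere near the gene. These are matches of letters, and binding was not measured.

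Pck1 was measured by a single named probe set, 1455209_PM_at, which was dim. Its group means lay above only 23.9% to 52.0% of all probe sets of the array, and 15692 probe sets of the array carry no gene in the annotation used. Others that measure Pck1 may be among these. The study's list of top up-regulated genes in aged fasted kidneys gives Pck1 a larger log ratio than Slc38a3. The values here are those of 1455209_PM_at alone. In the aged its log2 fold change, 0.80, is far smaller than that listed change. It need not show the size of the gene's response. Young ad libitum fed mice had log2 levels of 3.26, 3.22, 3.01, 3.15 and 3.13, and young fasted mice of 3.57, 3.75, 3.84 and 4.08. Every young fasted mouse was higher than every fed one, and the log2 fold change was 0.65 (SE 0.10, adjusted p 0.000633, limma). In aged ad libitum fed mice the log2 levels were 2.63, 2.40, 2.77, 3.38 and 2.76, and in aged fasted mice 4.12, 3.03, 3.56, 3.73 and 3.49. Here the groups overlapped, since fed mouse 40 at 3.38 lay above fasted mouse 38 at 3.03. The log2 fold change in the aged was 0.80 (SE 0.20, adjusted p 0.0316, 95% confidence interval 0.37 to 1.23). The highest value, 4.12, came from mouse 33, the array with the liver transcripts, and liver also expresses this gene. Fed mouse 40 had the highest summed levels of white (7.40) and brown (9.74) adipocyte markers in its group, and adipocytes express Pck1 too. Without mouse 33 the log2 fold change was 0.67 with an adjusted p of 0.0518. Leaving out fed mouse 34, 36, 37 or 43, or fasted mouse 33, 39, 41 or 42, took the adjusted p above 0.05, to at most 0.0839. Young fasted mouse 344 had the highest Pck1 level of the young mice and the lowest summed level of the white adipocyte markers in its group, 5.32. The part of liver and adipocyte RNA in these values was not tested.

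Pck2, the mitochondrial enzyme, rose in young but not detectably in aged kidneys at its brighter probe set, 1425615_PM_a_at. Young ad libitum fed mice had log2 levels of 5.89, 6.09, 6.10, 5.76 and 5.89, and young fasted mice of 6.64, 6.89, 6.34 and 6.96. The young diets did not overlap. In aged ad libitum fed mice the log2 levels were 5.97, 5.95, 5.83, 6.11 and 5.94, and in aged fasted mice 6.12, 5.80, 6.23, 6.08 and 6.09. The aged diets overlapped, and the lowest aged value came from a fasted mouse, 38. This is a log2 fold change of 0.76 (SE 0.12, adjusted p 0.0012, limma) in young and 0.10 (SE 0.09, adjusted p 0.592, 95% confidence interval -0.08 to 0.29) in aged kidneys. At the dimmer probe set, 1452620_PM_at, the log2 fold change was 0.20 (adjusted p 0.403) in young and -0.22 (adjusted p 0.292) in aged kidneys.

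Pcx, the pyruvate carboxylase that opens the route from lactate and alanine, rose in both ages without overlap between the diets (1416383_PM_a_at). Young ad libitum fed mice had log2 levels of 9.78, 10.03, 10.06, 9.98 and 9.83, and young fasted mice of 10.48, 10.79, 10.41 and 10.36. In aged ad libitum fed mice they were 10.39, 10.26, 10.32, 10.29 and 10.25, and in aged fasted mice 10.68, 10.74, 10.72, 10.60 and 10.65. The spread within the aged groups was small (SD 0.06 in each, n = 5), and the rise there, 0.38 (log2, SE 0.06, adjusted p 0.00242, limma), was larger than this. In young kidneys the log2 fold change was 0.57 (SE 0.10, adjusted p 0.0015). The difference between the ages was -0.19 (log2, adjusted p 0.482).

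Of the 2 fructose-bisphosphatases, Fbp2 passed the test in both ages and Fbp1 in neither. Fbp1, the liver and kidney enzyme, was among the brightest probe sets of the array (1448470_PM_at, above at least 99.8% of all probe sets in each group), and no fasting effect was detected. Its log2 levels ranged from 12.60 to 12.84 in young fed, 12.65 to 12.78 in young fasted, 12.70 to 12.88 in aged fed and 12.71 to 12.90 in aged fasted mice. Its fold change on the log2 scale was 0.01 in aged (95% confidence interval -0.13 to 0.15, adjusted p 0.951, limma) and -0.02 in young kidneys (-0.16 to 0.11, adjusted p 0.865).

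Fbp2, the enzyme best known from muscle, rose in both ages (1449088_PM_at). Older gene names swap the symbols of these 2 genes, so both were matched by gene identifier, 14121 for Fbp1 and 14120 for Fbp2. Young ad libitum fed mice had log2 levels of 6.41, 6.49, 6.99, 6.17 and 6.71, and young fasted mice of 7.74, 8.02, 7.52 and 7.81. Every young fasted mouse exceeded every fed one, with a log2 fold change of 1.22 (SE 0.15, adjusted p 0.000194, limma), which is 2.33-fold. In aged ad libitum fed mice the log2 levels were 7.57, 7.43, 7.63, 7.60 and 7.30, and in aged fasted mice 8.20, 7.86, 8.25, 8.14 and 7.63. Here the groups overlapped narrowly, because fasted mouse 42 at 7.625 lay just below fed mouse 37 at 7.629. The log2 fold change in the aged was 0.51 (SE 0.12, adjusted p 0.0233). It lost the threshold without fed mouse 36 or 43 or fasted mouse 39 or 41, with an adjusted p of up to 0.0691. Of 5 skeletal muscle markers, 0 rose in either age (0 also at an unadjusted p under 0.05 in limma and 0 by the unmoderated model), and Ckm fell in the young. Their summed level was 5.48 to 5.61 in young fed and 5.54 to 5.62 in young fasted mice. In the aged it was 5.33 to 5.48 in fed and 5.32 to 5.46 in fasted mice. Sums this low over 5 markers come from dim probe sets, so these counts say little about muscle RNA. Its part in the Fbp2 values was not tested.

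Slc37a4, the transporter that brings glucose 6-phosphate into the endoplasmic reticulum, did not pass the threshold in either age (1417042_PM_at). It is shown with the window before the first of its 3 start sites, chr9:44396696-44396945 on the plus strand of GRCm38.p6 (RefSeq), since it holds the same core as Pck1, here as TGACGT at -61 and again in capitals.
Slc37a4: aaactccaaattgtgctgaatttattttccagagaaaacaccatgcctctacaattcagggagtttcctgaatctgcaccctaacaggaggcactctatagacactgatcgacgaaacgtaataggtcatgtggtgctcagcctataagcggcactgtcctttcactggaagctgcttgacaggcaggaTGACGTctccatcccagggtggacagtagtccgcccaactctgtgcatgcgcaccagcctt
Young ad libitum fed mice had log2 levels of 10.58, 10.88, 10.73, 10.01 and 10.60, and young fasted mice of 10.64, 11.17, 10.98 and 10.92. The young groups overlapped, with fed mouse 349 far below the rest, and the log2 fold change was 0.37 (SE 0.16, 95% confidence interval 0.02 to 0.72, adjusted p 0.142, limma). In aged mice the log2 levels were 10.53 to 10.66 when fed and 10.36 to 10.66 when fasted. The log2 fold change there was -0.05 (95% confidence interval -0.20 to 0.10, adjusted p 0.776). The window of Glud1, which rose in both ages, held none of the motifs searched, and 82.0% of its bases are G or C, against a median of 52.4% over all windows. It lies at chr14:34310477-34310726 on the plus strand and is printed to show this composition.
Glud1: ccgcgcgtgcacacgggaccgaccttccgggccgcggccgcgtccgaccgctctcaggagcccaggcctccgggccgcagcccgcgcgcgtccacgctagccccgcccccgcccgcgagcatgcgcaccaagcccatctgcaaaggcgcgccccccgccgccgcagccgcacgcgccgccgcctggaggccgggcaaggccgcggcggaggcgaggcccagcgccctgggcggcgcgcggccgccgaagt

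The 5 probe sets listed for both Ppargc1a and Asic2 cannot be given to one of these genes. All were moderately bright, and their log2 fold changes ran from 0.25 to 0.43 in aged and from 0.16 to 0.27 in young kidneys. At 1437751_PM_at the log2 levels in aged ad libitum fed mice were 7.70, 7.68, 7.57, 7.62 and 7.84, and in aged fasted mice 7.89, 8.15, 8.14, 8.24 and 8.13, with no overlap. This was the probe set of the 5 that rose in the aged (0.43, SE 0.08, adjusted p 0.00595, limma), and 5 of 5 were higher there at an unadjusted p under 0.05, as were 9.86% of all probe sets. In young kidneys 0 of 5 rose in limma and 0 by the unmoderated model, with 4 of 5 higher at an unadjusted p under 0.05 (15.8% of all probe sets) and adjusted p values of 0.0536 to 0.177. Without mice 33 and 339, 3 of the 5 passed in aged and 1 in young kidneys.

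The fasting effect was then compared between the ages in one fit of the 4 groups. Pck2 at 1425615_PM_a_at was the member whose effect differed, by -0.66 (log2, aged minus young, SE 0.15, adjusted p 0.0296, limma), where 1.95% of all probe sets differed in either direction (1.21% higher and 0.747% lower in the aged). In the unmoderated model this difference had an adjusted p of 0.069, and it lost the threshold without young fed mouse 346 or 350, young fasted mouse 340 or 344, or aged fasted mouse 38, with an adjusted p of up to 0.0741. Fbp2 had a difference of -0.71 (SE 0.20, adjusted p 0.0759), followed by Slc37a4 with -0.42 (SE 0.18, adjusted p 0.28) and the dimmer Pck2 probe set with -0.42 (SE 0.18, adjusted p 0.31). For Pck1 at 1455209_PM_at the difference between the ages was 0.15, with a 95% confidence interval of -0.36 to 0.66, and for Fbp1 it was 0.04 (-0.14 to 0.22). These intervals are wide for Pck1 and Slc38a3 and narrow for Glud1 and Fbp1. Of the 11 probe sets, 0 had a higher effect in the aged, also at an unadjusted p under 0.05 in limma. By the unmoderated model 0 had a higher effect at an adjusted p of at most 0.05. In limma 4 had a lower effect at an unadjusted p under 0.05, where 6.24% of all probe sets were lower and 7.33% higher.

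**Figure D3:**
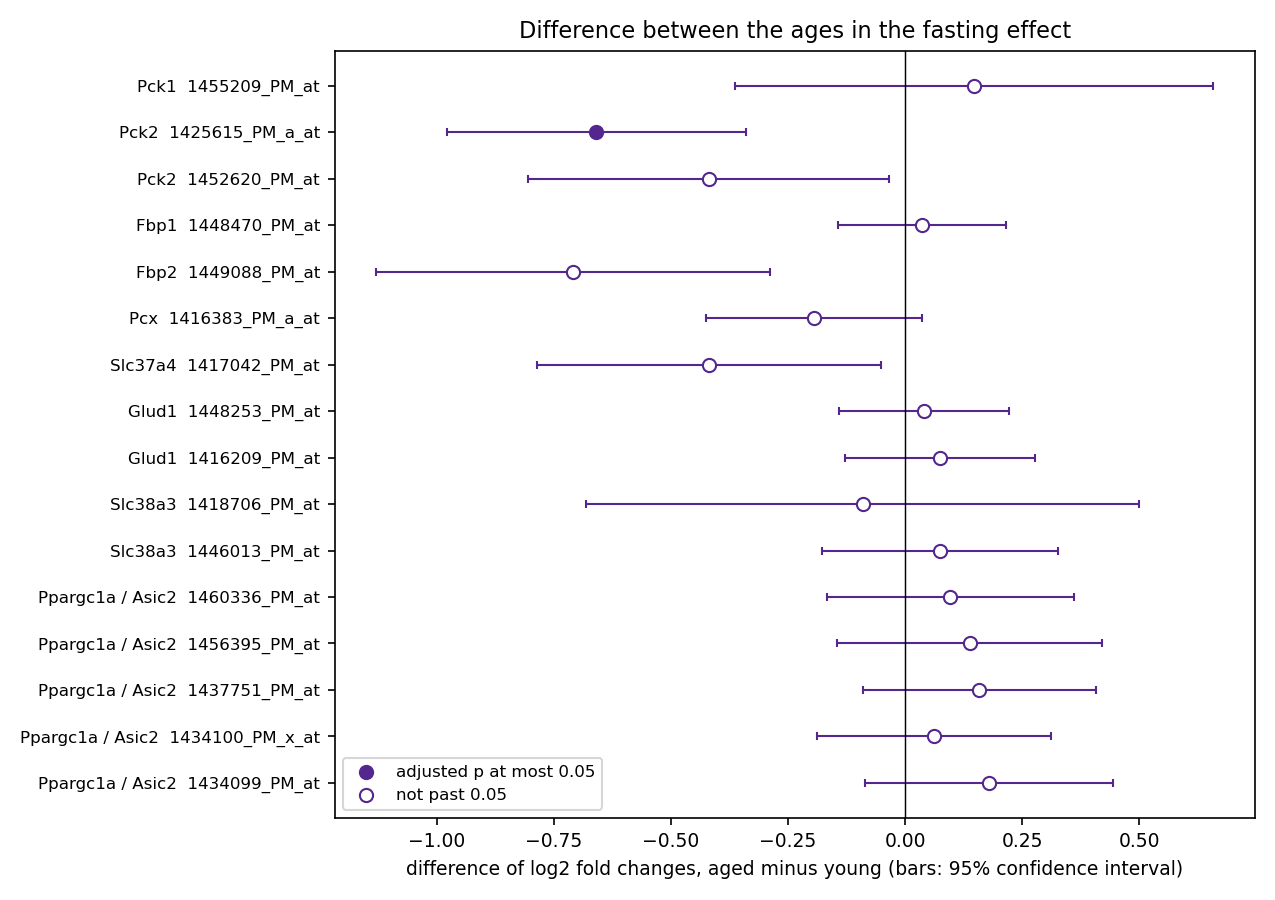
Difference between the fasting effects, aged minus young, as log2 (x axis) with 95% confidence intervals for the same 16 probe sets (rows). The filled point is Pck2 at 1425615_PM_a_at (-0.66), which passed an adjusted p of 0.05, and the intervals of both Glud1 probe sets and of Fbp1 lie within 0.28 of 0.

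The other genes of the pathway, 70 listed by role of which 60 were analysed here, moved in both directions. In aged kidneys 8 rose and 5 fell, with a median log2 fold change of 0.07, and in young kidneys 15 rose and 13 fell, with a median of -0.004. Of all probe sets, 3.16% rose and 3.32% fell in aged kidneys, and 10.1% rose and 9.54% fell in the young. These shares are also the background for the counts by role and of markers below. The effect differed between the ages for Gpd1 (-0.71, adjusted p 0.000745, limma), Rhcg (0.52, adjusted p 0.0165) and Creb1 (0.54, adjusted p 0.0216), and the adjusted p for Creb1 was above 0.05, at most 0.0573, without young fasted mouse 340 or 344. Rhcg, an ammonia channel, and Creb1, the factor that binds the cyclic AMP element, were chosen for naming after their values were seen. The log2 fold change of Rhcg was -0.33 in young (adjusted p 0.00884, limma) and 0.18 in aged kidneys (adjusted p 0.229). That of Creb1 was -0.27 in young (adjusted p 0.0324) and 0.27 in aged kidneys (adjusted p 0.0902). Of 4 genes of glucose release and transport, Slc5a2 (SGLT2), which takes glucose back from the urine, fell by 1.09 on the log2 scale in aged (adjusted p 3.63e-05) and by 0.89 in young kidneys (adjusted p 0.00082), while G6pc, the catalytic subunit of glucose-6-phosphatase, fell by 0.44 in the young (adjusted p 0.0455). In aged kidneys G6pc had a log2 fold change of -0.01 (adjusted p 0.975). The G6pc groups overlapped, and its adjusted p in the young rose above 0.05, to at most 0.128, without fed mouse 348, 349 or 350 or fasted mouse 339, 343 or 344. At an unadjusted p under 0.05 in limma, 0 of these 4 genes were higher in either age. By the unmoderated model 0 were higher at an adjusted p of at most 0.05. The other 2, G6pc3 and the glucose transporter Slc2a2, had log2 fold changes between -0.18 and -0.01.

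Of the reversible steps shared with glycolysis, 3 of 7 genes were measured, and Tpi1 (triose phosphate isomerase) fell by 0.36 in aged kidneys (adjusted p 0.00322, limma) while its log2 fold change in the young was -0.11 (adjusted p 0.288). Of 9 glycolytic genes that oppose gluconeogenesis, 3 rose in young kidneys. Pklr, the pyruvate kinase of liver and kidney, rose there by 0.89 (log2, adjusted p 0.000403), Pfkfb3, which makes the activator of phosphofructokinase, by 0.61 (adjusted p 0.000117), and Pfkm, a phosphofructokinase, by 0.28 (adjusted p 0.0216, above 0.05 and up to 0.0641 without fasted mouse 340, 343 or 344). In aged kidneys 0 of the 9 rose or fell in limma and 0 by the unmoderated model, with 2 higher at an unadjusted p under 0.05. The values there were 0.24 for Pklr, 0.43 for Pfkfb3 and 0.13 for Pfkm, and their differences between the ages did not pass (adjusted p 0.0618, 0.812 and 0.56).

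Of 13 measured genes of carbon entry and shuttles, 1 rose and 2 fell in aged kidneys, and 3 rose and 3 fell in the young. The mitochondrial dicarboxylate carrier Slc25a10 rose in both ages, by 0.40 in aged (log2, adjusted p 0.0108, limma) and 0.58 in young kidneys (adjusted p 0.000467). The 2 glycerol 3-phosphate dehydrogenases moved apart in the young, where the cytosolic Gpd1 rose by 0.84 (adjusted p 1.51e-05) and the mitochondrial Gpd2 fell by 0.74 (adjusted p 4e-05). In aged kidneys Gpd1 had a log2 fold change of 0.13 (adjusted p 0.37) and Gpd2 fell by 0.47 (adjusted p 0.0489, above 0.05 without any one of 8 of the 10 mice, namely fed mouse 34, 36, 37, 40 or 43 or fasted mouse 33, 38 or 39). Slc16a1, a lactate and pyruvate transporter, rose by 0.60 in the young (adjusted p 0.000152) and had a value of 0.19 in the aged (adjusted p 0.723).

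Of 15 measured genes of glutamine, glutamate and ammonia handling, 2 rose and 1 fell in aged and 3 rose and 5 fell in young kidneys. Both alanine aminotransferases, which form pyruvate from alanine and pass its amino group to glutamate, rose in both ages. For Gpt the log2 fold change was 0.59 (adjusted p 0.00896, limma) in aged and 1.12 (adjusted p 6.17e-05) in young kidneys, and for Gpt2 it was 0.71 (adjusted p 0.00594) and 0.96 (adjusted p 0.000182). Slc7a7, the basolateral exchanger of cationic for neutral amino acids, fell by 0.60 in aged (adjusted p 0.00659) and 1.05 in young kidneys (adjusted p 0.000184). The others that fell in the young, named to complete the count, were Slc9a3 (-0.34), Rhcg (-0.33), Aldh4a1 (-0.32) and Ogdh (-0.24). The adjusted p of Ogdh, 0.0258, was above 0.05, at most 0.074, without fed mouse 347 or 348 or fasted mouse 340, 343 or 344. Slc1a5, another glutamine transporter, rose by 0.37 in the young (adjusted p 0.00443) and had a value of 0.17 in the aged (adjusted p 0.442).

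Of 16 regulators of gluconeogenic transcription, 5 rose and 0 fell in aged kidneys (2 were lower at an unadjusted p under 0.05 in limma, and 0 by the unmoderated model), and 6 rose and 3 fell in the young. Cebpa, a liver-enriched transcription factor, rose by 1.33 in aged (log2, SE 0.23, adjusted p 0.00374, limma) and 0.86 in young kidneys (SE 0.08, adjusted p 4.2e-05). Ppara, the receptor that drives fat oxidation in fasting, rose by 0.87 (SE 0.09, adjusted p 0.000152) and 1.01 (SE 0.09, adjusted p 1.45e-05). Cebpb rose by 0.72 (adjusted p 0.00461) and 0.80 (adjusted p 0.00134). Foxo3, a forkhead factor, rose by 0.53 in the young (adjusted p 0.00284), with a value of 0.32 in the aged (adjusted p 0.151). The 3 regulators that fell in the young, Creb1, Nr3c1 and Esrra, did so by 0.27, 0.29 and 0.23, and were named because they were so few. Each of these calls was lost when 1 of certain mice was left out. The log2 fold changes without 1 mouse stayed between -0.33 and -0.20. The adjusted p of Creb1, 0.0324, was above 0.05, at most 0.0957, without fed mouse 346, 347, 349 or 350 or fasted mouse 340 or 344. That of Nr3c1, the glucocorticoid receptor, was 0.0209, and at most 0.0538 without fasted mouse 339 or 343. That of Esrra, an orphan nuclear receptor, was 0.0227, and at most 0.0694 without fed mouse 346 or fasted mouse 343 or 344.

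**Figure D4:**
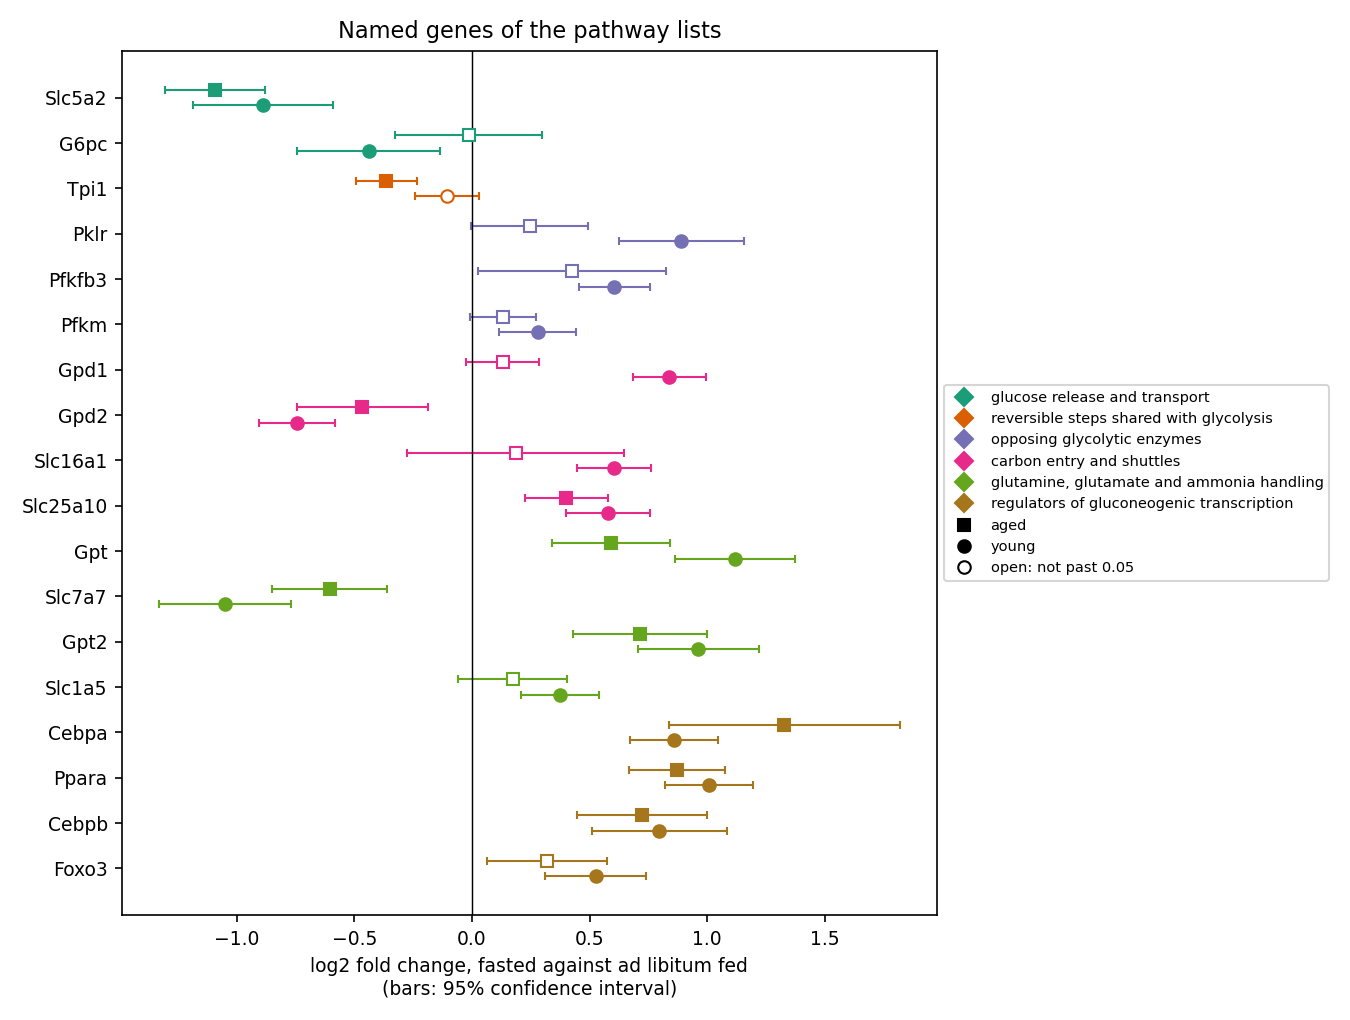
Log2 fold change of fasted against ad libitum fed mice (x axis) with 95% confidence intervals for the 18 named genes of the pathway lists (rows), colored by list, with squares for aged and circles for young kidneys and open symbols for an adjusted p above 0.05. Cebpa in the aged lies at 1.33 and Slc5a2 at -1.09, and none of these 18 genes rose in one age and fell in the other.

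The genes whose pattern over the 19 mice was nearest to a member were sought by the root mean square difference of log2 levels, each age centered on its fed mice. For Glud1 these were Eci1 (0.11), an enzyme of fatty acid oxidation, Slc13a2 (0.15), the citrate and dicarboxylate transporter of the tubule, and Pdxk (0.18), pyridoxal kinase. Eci1 rose by 1.20 in the aged and 1.17 in the young (log2), close to the 1.17 and 1.13 of Glud1. For Slc38a3 they were Acot3 (0.26), Aldh1a7 (0.44) and Id1 (0.48), and the probe set listed for Acot3 rose by 2.61 in aged and 2.59 in young kidneys. Acot3 belongs to a family of closely related acyl-CoA thioesterases, and a probe set of the s_at kind, as this one is, can match several related genes, so the gene behind this value is uncertain. For Pck1 at 1455209_PM_at they were Kng1 (0.20), Id4 (0.22) and Rhbdl1 (0.23), of which Kng1, kininogen, is also made in the liver. Kng1 rose by 0.72 in aged and 0.65 in young kidneys.

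Markers of other cell types were set beside these results. In aged kidneys 0 of 6 liver markers rose or fell (limma, 1 was higher and 1 lower at an unadjusted p under 0.05, and 0 passed by the unmoderated model). Their summed level was 13.80 (log2) in aged fasted mouse 33 and 10.79 to 11.04 in the other aged fasted mice. In aged fed mice it was 11.50 to 11.78, so the count of 0 does not show equal levels. In young kidneys 2 rose and 1 fell, with summed levels of 12.11 to 12.50 in fed and 12.16 to 12.30 in fasted mice. Of 5 brown adipocyte markers 1 fell in the aged, and 2 rose and 1 fell in the young. Of 3 white adipocyte markers 0 passed in either age (0 at an unadjusted p under 0.05, 0 by the unmoderated model). Their summed level ranged from 6.65 to 7.70 in young fed and from 5.32 to 9.74 in the young fasted, from 5.28 to 7.40 in aged fed and from 4.46 to 8.67 in aged fasted mice, a wider range in the fasted group of each age. Their part in the fasting effects was not tested. For Glud1 and Slc38a3 the fasting effect was about as large without mice 33 and 339. Without them the log2 fold change of Glud1 was 1.20 in aged and 1.13 in young kidneys at 1448253_PM_at, and that of Slc38a3 was 2.35 and 2.45 at 1418706_PM_at. Among the mice kept, young fasted 340 (8.59) and 343 (9.46) and aged fasted 41 (8.67) and 42 (8.07) also exceeded every fed mouse of their age in white adipocyte markers. Leaving out mice 33 and 339 therefore does not address adipocyte RNA.

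**Figure D5:**
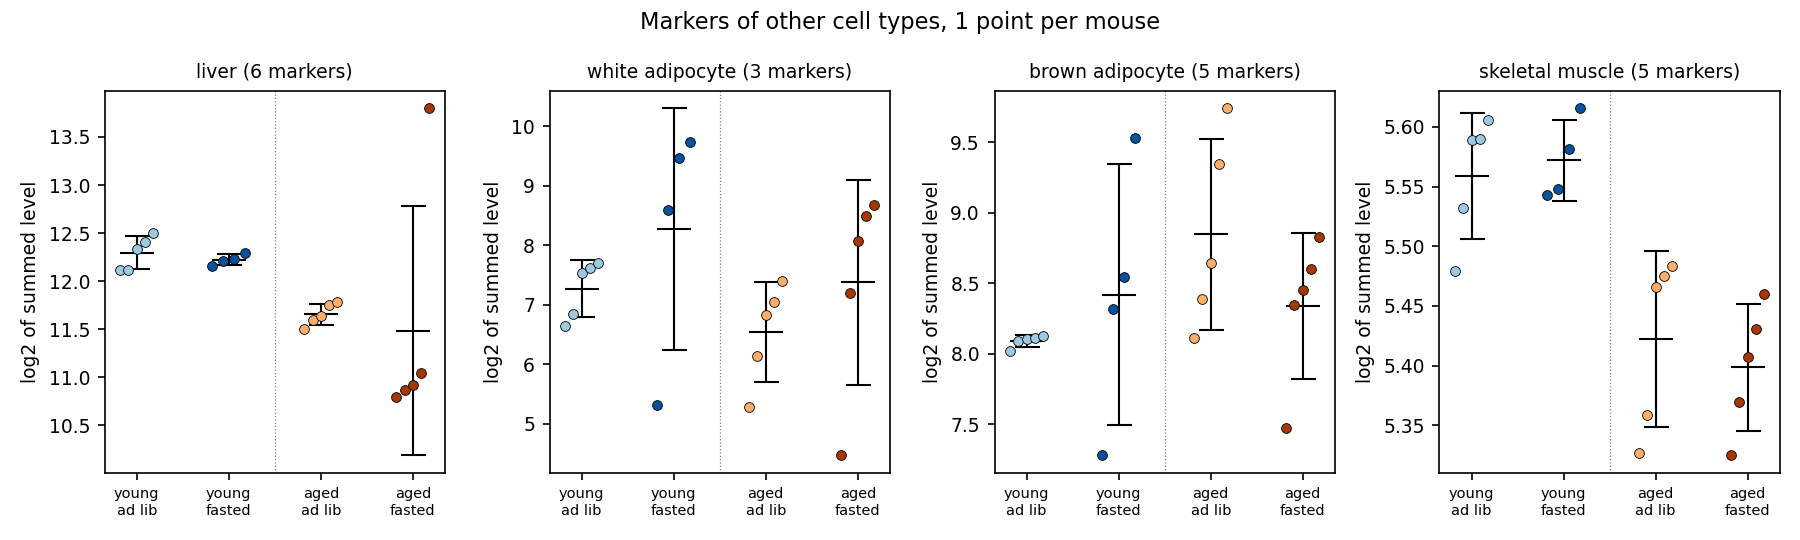
Log2 of the summed linear level (y axis, a separate scale in each panel) of markers of liver, white adipocytes, brown adipocytes and skeletal muscle in the 4 groups (x axis), 1 point per mouse with the group mean and SD as bars. The single high liver value, 13.80, is aged fasted mouse 33, and the 5 skeletal muscle markers stay between 5.32 and 5.62.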

How the data were processed

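Kidney RNA of 19 male mice was hybridized to Affymetrix HT MG-430 PM arrays, 1 per mouse, namely 9 young mice (4 of them fasted) and 10 aged mice (5 of them fasted). The authors deposited log2 values from the RMA algorithm, run in an online pipeline whose version is not given in the sources used here, as one table of 45141 probe sets. The array medians point to a separate normalization of each age. No raw intensities were used, and the number of arrays limits the precision. No 2 arrays held identical values.

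Probe sets were named from the platform annotation given with the reference files. Of them 28898 carried 1 symbol, 551 several and 15692 were not listed, and 28689 of the first were matched to RefSeq by gene identifier. Fasted and ad libitum fed mice were compared within each age with limma 3.58.1 in R 4.3.3 (moderated variances, Benjamini-Hochberg over all probe sets, adjusted p of at most 0.05), and the difference between the ages in one fit of the 4 groups. For each pathway gene the brightest probe set naming it alone was used. The text names all members, up to 4 genes of each pathway list that passed in at least 1 age with the largest change, the 3 nearest genes to Pck1, Slc38a3 and Glud1, and a few others where it says so. The members and lists were chosen with earlier results of these data known, so they give no independent support. On simulated data over 45141 probe sets, 99 of 100 changes of 1 log2 unit were recovered in the aged, 95 of 100 in the young and 90 of 100 in the difference, and 69, 49 and 37 of 100 changes of 0.5, with 9, 11 and 4 unchanged probe sets called. The simulation drew normal noise with a single spread per probe set for the 4 groups. It also changed fewer probe sets than were called here, so its rates need not hold for these data. In each age 10 of the 11 member probe sets lay above the 40% of probe sets with the lowest level. Promoter windows of 250 bases came from RefSeq (GRCm38.p6), which gave 11 start sites for 8 members and none for Slc38a3. Alternatives were the linear model without moderated variances, all arrays in one fit, separate variances, array weights, trend and robust fitting, quantile normalization, median centering, a level filter, a 1.5-fold minimum, an adjusted p of 0.01, other choices of probe set, and leaving out mice. The study's methods name ANOVA. The p-values it lists for Slc38a3, Id1 and Aldh1a7 in the aged, however, equal the adjusted p values of limma here.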

Additional observations from a re-analysis of the deposited data

Results flagged for a closer look

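Within groups of 4 or 5 mice, the gap between the most extreme mouse and its neighbor was compared with the range of the group at the 16 probe sets. It was unusually large in 5 of 64 groups, and chance gives about 1 in 20. Fbp1 was lowest in young ad libitum fed mouse 349 (12.6028, the next 12.7709), and the same mouse was lowest at 1460336_PM_at, listed for Ppargc1a and Asic2 (9.8709, the next 10.028). Glud1 at 1448253_PM_at was highest among young ad libitum fed mice in mouse 346 (11.3962, the next 11.3086) and lowest among aged fasted mice in mouse 33 (11.6244, the next 11.7813), the mouse with the high liver markers. At 1456395_PM_at, also listed for Ppargc1a and Asic2, aged ad libitum fed mouse 43 was highest (8.7142, the next 8.4491). The fasting effect on Pck2 at 1425615_PM_a_at differed between the ages by -0.6592 (adjusted p 0.0296, limma).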

How the results depend on the processing

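The members that rose numbered 6 in aged kidneys, and 4 by the unmoderated model (Pck1 adjusted p 0.122, Fbp2 0.0822), with a 1.5-fold minimum or at an adjusted p of 0.01. The 7 in young kidneys became 6 with the fold minimum or the level filter. The pathway genes that passed fell from 13 to 7 in aged and from 28 to 12 in young kidneys with the 1.5-fold minimum. The 1 member that differed between the ages became 0 by the unmoderated model, 0 at an adjusted p of 0.01, and 2 with the variances of each age kept apart (Fbp2, adjusted p 0.00829, beside Pck2). Leaving out 1 mouse at a time gave 4 to 6 members in aged and 7 to 7 in young kidneys, 12 to 14 and 22 to 27 pathway genes, and 0 to 2 members in the difference, with 0 without young ad libitum fed mouse 346 or 350, young fasted mouse 340 or 344 or aged fasted mouse 38, and 2 without young ad libitum fed mouse 348. The sign turned for values whose intervals include 0. These were Fbp1 in the aged (-0.0092 with quantile normalization, -0.0112 to 0.0379 without 1 mouse) and in the young (-0.0606 to 0.0022), Slc38a3 at 1446013_PM_at in the young (-0.0053 with quantile normalization, -0.0194 with median centering, -0.0397 to 0.0595 without 1 mouse), and differences between the ages for Pck1 (-0.0651) and Slc38a3 at 1446013_PM_at (-0.0505) without mice 33 and 339 and for Slc38a3 at 1418706_PM_at (-0.2098 to 0.1329 without 1 mouse). The causes were not tested. Of the alternative values of single probe sets, 1021 kept direction and side of the threshold, 25 gained it, 28 lost it and 11 changed sign. No paired analysis was possible because mouse numbers are not shared between groups. RMA values carry no detection call, so for dim probe sets such as Pck1 the table gives no bound on the level.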
